A study of Mus musculus with 6 samples.

Results

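Among the cell barcodes of 4 single-cell libraries, 554 of 4803 carried T cell receptor or Cd4 transcripts together with a high share of mitochondrially encoded transcripts. They were chosen by 3 measured values: at least 200 detected genes, more than 10% of UMIs (unique molecular identifiers, counts of distinct captured transcripts) from the genes whose names start with mt-, and at least 1 UMI summed over Cd3e, Cd3d, Cd3g, Cd4, Trac and Trbc2. Mutant 1 held 235 of them, mutant 2 held 37, WT 1 held 116 and WT 2 held 166. They are called high-mt T cell barcodes here, and they were set against the 3108 low-mt barcodes of the same libraries (924 in mutant 1, 209 in mutant 2, 1299 in WT 1 and 676 in WT 2), which had at least 500 detected genes and at most 10% mt- UMIs. No deposited value measures cell damage itself, so the usual reading of such barcodes as damaged cells was not checked.

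The mutant libraries came from OT-II CD4+ T cells heterozygous for the M318R allele of Tgfbr1 (genotype label TgfbrIWT/mut), knocked into the mouse locus, and the WT libraries came from OT-II cells with the wild-type gene. Tgfbr1 encodes the type I receptor for TGF-beta, and OT-II cells carry a transgenic receptor for an ovalbumin peptide. All donors were also RAG-/-, so their cells make no T cell receptor of their own. CD4+ cells from the donors' lymph nodes and spleen were placed in CD45.1 WT hosts, which otherwise kept their own lymphocytes and drank 1.5% ovalbumin for 7 days. Peyer's patches were taken on day 8 and passed through a sort whose gate was CD45.2+CD45.1-CD4+CD8-TCRβ+, which keeps the donor cells. Each genotype had 2 libraries. The labels name neither the animals behind each library nor the donors' age, so the spread between libraries may be technical. The p-values and SEs of edgeR, the test program, rest on a spread estimated partly from all genes, not from 1 gene's libraries alone. A gene can thus be called though its libraries differ in direction, as for Mki67 below. Only the WT matrices hold antibody tags, so handling with hashtag antibodies and the WT genotype cannot be told apart.

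As background, a cell whose plasma membrane has opened can lose cytosolic messenger RNA while organelles with their own membranes, the mitochondria and the nucleus, hold theirs. Droplet studies therefore often discard barcodes with a high mitochondrial share. Mitochondria are where the mt- messenger RNAs are made and translated, while messenger RNAs for ribosomal, actin and secreted proteins work in the cytosol or on the endoplasmic reticulum, and RNAs such as Malat1, Neat1 and Xist stay in the nucleus.

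Nuclear-encoded transcripts were scarce in the high-mt barcodes and mitochondrial ones were not. The median number of nuclear-encoded UMIs per barcode was 1298, 1627, 775.5 and 1172.5 in the high-mt barcodes of mutant 1, mutant 2, WT 1 and WT 2, against 8151, 8644, 8548 and 8267.5 in their low-mt barcodes. The high-mt medians were thus 15.9%, 18.8%, 9.07% and 14.2% of the low-mt ones. The median number of mt- UMIs was 338, 353, 320.5 and 321.5 in the high-mt barcodes and 320.5, 290, 253 and 289.5 in the low-mt barcodes, which is 105%, 122%, 127% and 111%. In these 4 libraries the high share therefore went with few nuclear-encoded UMIs and with mt- UMIs at or somewhat above the low-mt level. Since the mt- share and the gene count chose the barcodes, these depths are a description and were not tested.

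**Figure D1:**
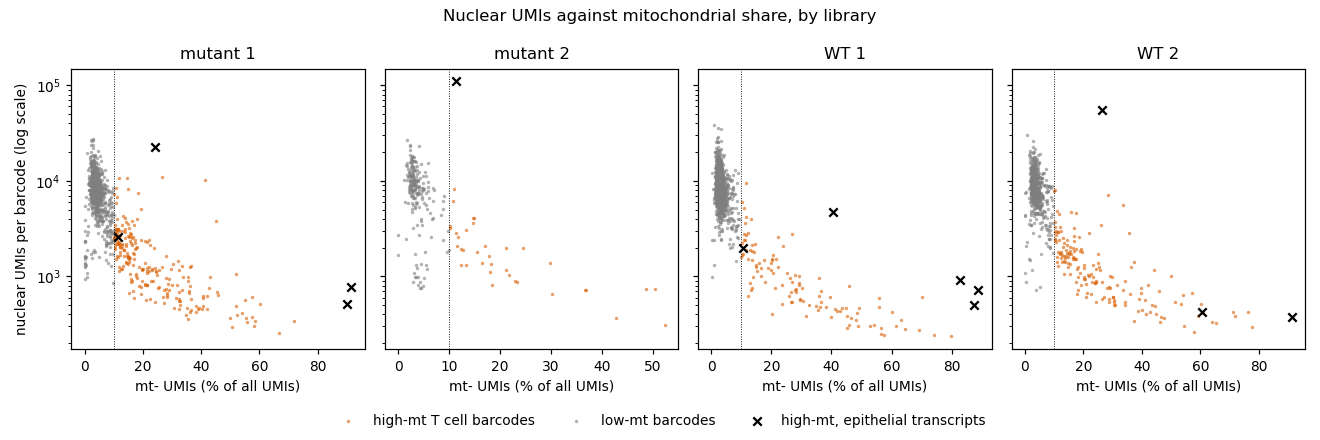
Nuclear-encoded UMIs per barcode (log scale) against the share of mt- UMIs in percent, 1 panel per library and 1 point per barcode, with the 10% limit dotted. High-mt T cell barcodes (orange) fall off in nuclear UMIs as the share rises, low-mt barcodes (grey) sit left of the limit, and crosses mark the 13 high-mt barcodes rich in epithelial transcripts, the largest with 110047 nuclear UMIs.

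The limits of the rule cut through a continuum. Barcodes at 8 to 10% mt- UMIs (99 barcodes of at least 500 genes) had a median of 3787 nuclear UMIs and gave 17.1% of them to ribosomal protein genes, and high-mt barcodes at 10 to 12% (87) had a median of 2730 and gave 11.0%. These shares are of summed UMIs. The 87 included 3 barcodes rich in epithelial transcripts, 1 of them in mutant 2 with 110047 nuclear UMIs, and the 99 included 0. At the gene limit, the 26 members with the fewest genes (median 216) had a median of 301.5 nuclear UMIs, and the 30 otherwise alike barcodes just below it (median 180 genes) had 233. Of the 554 members, 172 had fewer than 500 detected genes and 73 had a single UMI of the 6 T cell genes. A further 97 barcodes met the other 2 limits without any such UMI. Between pairs of libraries 62 barcode sequences were shared, of which 13 were a member in either library and 1 in both.

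A few members did not look like T cells. Epithelial marker genes (18 listed) took at least 1% of the nuclear UMIs in 13 of the 554 members (4 in mutant 1, 1 in mutant 2, 5 in WT 1 and 3 in WT 2), and 10 of these 13 had only 1 UMI of the T cell genes. They held 5.81%, 60.0%, 6.20% and 18.5% of all high-mt nuclear UMIs in mutant 1, mutant 2, WT 1 and WT 2, and a single barcode made up the whole share in mutant 2. Among the 97 barcodes without a T cell UMI, 48.5% were of this kind. Over the whole epithelial list the summed level ranged from 25.8 to 427 per 10000 nuclear UMIs in the high-mt barcodes and from 0.119 to 42.7 in the low-mt ones. With the 13 barcodes (and 20 low-mt ones of the same kind) left out, it ranged from 0.222 to 0.999 in the high-mt and from 0.119 to 0.323 in the low-mt barcodes. Vil1, Cdh1, Krt18, Krt19, Krt20, Muc2 and Reg3b were then at 0 in the high-mt barcodes. Of the other lineages, 8 of 13 myeloid, 8 of 10 stromal or endothelial, 5 of 6 red blood cell, 2 of 14 B cell, 3 of 7 plasma cell and 5 of 8 NK or innate lymphoid markers had no UMI in the high-mt barcodes without them. Pecam1, an endothelial adhesion molecule also known from some leukocytes, stood at 171, 241, 171 and 186 CPM (UMIs of a library and class relative to its nuclear-encoded UMIs, scaled by TMM) in the high-mt barcodes, against 73.5, 94.2, 83.2 and 69.0 CPM in the low-mt barcodes, a log2 fold change of 1.26 ± 0.15 (edgeR adjusted p = 1.91e-13). The summed stromal or endothelial level was 1.93 to 2.73 per 10000 nuclear UMIs in the high-mt barcodes and 0.615 to 0.880 in the low-mt ones. This sum includes Pecam1, and 8 of its 10 genes had no UMI in the high-mt barcodes, so it is no separate sign of such cells. Ighm, the heavy chain of IgM, stood at 244, 145, 79.5 and 151 CPM in the high-mt barcodes, against 340, 357, 194 and 315 CPM in the low-mt barcodes. The part of these cell types in the results was not tested.

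These barcodes decided which genes led the comparison, so the counts of called genes, also by process list, are given with and without them. Some other results are given in 1 setting only. The setting without them was added after the values had been seen. With all members, the 12 genes that led upward were Apob, Fabp1, Gsta1, Apoa4, Apoc2, Papss2, Adh1, Clic5, Cdhr5, Aldh1a1, Myo1a and Ckmt1, a group with several genes of absorptive gut epithelium. Fabp1, a fatty acid binding protein of enterocytes, stood at 674, 13888, 236 and 4171 CPM in the high-mt barcodes of mutant 1, mutant 2, WT 1 and WT 2 and at 40.2, 5.02, 0.288 and 27.6 CPM in the low-mt barcodes. Without the 13 barcodes, none of the 18 epithelial markers had enough UMIs to be tested. The account of genes that follows leaves them out (541 high-mt and 3088 low-mt barcodes) unless it says otherwise.

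The 3 genes given as marks of these barcodes behaved differently from each other. Malat1, a nuclear long non-coding RNA (chromosome 19, 5795690 to 5802672, minus strand, build GRCm38/mm10), took 12.6%, 14.6%, 10.1% and 12.5% of the nuclear UMIs of the high-mt barcodes in mutant 1, mutant 2, WT 1 and WT 2, against 5.14%, 5.15%, 3.57% and 4.38% in the low-mt barcodes. Every high-mt value lay above every low-mt value, yet per barcode the high-mt class held only 51.5% ± 11.0 (SD, n = 4 libraries) of the low-mt number of Malat1 UMIs. Lars2, the mitochondrial leucyl-tRNA synthetase (chromosome 9, 123366927 to 123462666, plus strand), stood at 1070, 1904, 819 and 1312 CPM in the high-mt barcodes and at 335, 571, 207 and 296 CPM in the low-mt barcodes. Per barcode 90.2% ± 10.4 of its UMIs were still there. mt-Atp8, a mitochondrially encoded ATP synthase subunit, made up 0.486%, 0.747%, 0.377% and 0.448% of the mt- UMIs in the high-mt barcodes and 0.561%, 0.828%, 0.526% and 0.510% in the low-mt barcodes, so within the mitochondrial transcripts it was lower in the high-mt class in each of the 4 libraries.

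The 6 genes of the T cell rule were kept unevenly. Cd4, the co-receptor for class II MHC, stood at 429, 470, 428 and 556 CPM in the high-mt barcodes, against 415, 484, 378 and 372 CPM in the low-mt barcodes, and 28.1% ± 5.11 of its UMIs per barcode were left. Trac, the constant part of the T cell receptor alpha chain, stood at 2633, 2337, 2055 and 3089 CPM in the high-mt barcodes, against 7354, 7322, 7655 and 7508 CPM in the low-mt barcodes, with 8.41% ± 2.25 left. Cd3e, a signalling chain of the receptor complex, stood at 852, 976, 881 and 864 CPM in the high-mt barcodes, against 1631, 1597, 1541 and 1583 CPM in the low-mt barcodes. The kept share was 13.8% for Cd3e, 8.80% for Cd3d, 9.67% for Cd3g and 9.34% for Trbc2. Since the rule requires 1 such UMI from the high-mt class, these values were not tested, are no check of T cell identity, and overstate what is left in the whole high-mt population.

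What remained of the nuclear-encoded transcripts had another composition than in the low-mt barcodes. Of 8192 genes tested, 2188 (26.7%) were relatively higher and 2330 (28.4%) relatively lower in the high-mt barcodes by the quasi-likelihood test of edgeR after Benjamini-Hochberg adjustment (threshold 0.05), or 55.2% in all. The 4 high-mt values did not overlap the 4 low-mt values for 43.7% of genes. With all members the same test on 8396 genes called 996 (11.9%) higher and 1212 (14.4%) lower, 26.3% in all, and 33.3% did not overlap. Refits on all members without 1 library called 235 genes without WT 2, 588 without WT 1, 853 without mutant 1 and 3357 without mutant 2. Without the epithelial barcodes, leaving out 1 library gave 3413 to 4552. Both settings shared 2044 called genes, 92.6% of the calls with all members and 45.2% of those without the epithelial barcodes, and 2043 of these had the same sign.

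The numbers of higher and lower genes depend on the scaling. TMM centres the fold change of all genes near 0 (median log2 of -0.01), and without TMM, at plain CPM, the median was 0.39 and 3227 genes were called higher against 1491 lower. With all members the split without TMM was 1681 higher and 717 lower, with a median of 0.31. A positive value below therefore means kept better than the typical gene, and the typical gene kept 24.4% of its UMIs per barcode. Of the 24 leading genes named next, all but Gm26917 had on average fewer UMIs per barcode in the high-mt class.

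Genes annotated as long non-coding RNAs and several large messenger RNAs led the higher genes. Gm26917, annotated as a predicted long non-coding RNA (chromosome 17, 39843013 to 39846341, plus strand), led with 829, 1542, 936 and 814 CPM in the high-mt barcodes of mutant 1, mutant 2, WT 1 and WT 2, against 111, 154, 190 and 174 CPM in the low-mt barcodes. The high-mt libraries all lay above the low-mt ones, the log2 fold change was 2.65 ± 0.10 (SE), and the edgeR adjusted p was 1.12e-63. It was the only one of the 12 leading genes whose UMIs per barcode did not decline on average, at 174% ± 88.7 of the low-mt number. Gm42418, a gene of the same annotation that lies next to Gm26917 (39846958 to 39848788, plus strand), took 4.63%, 7.87%, 3.67% and 5.04% of the high-mt nuclear UMIs, against 1.15%, 1.73%, 0.644% and 0.959% of the low-mt ones. Which RNA the UMIs of Gm26917 and Gm42418 come from was not tested. AY036118 lies inside Gm42418 on the opposite strand (39847113 to 39848035), so their UMIs may be divided between them uncertainly. AY036118 itself had 1147, 1205, 948 and 1412 CPM in the high-mt barcodes and 1214, 1539, 742 and 1059 CPM in the low-mt barcodes, and its log2 difference of 0.10 ± 0.10 did not pass the test (edgeR adjusted p = 0.411).

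Xist, the non-coding RNA that coats the inactive X chromosome, stood at 1595, 1639, 2061 and 1856 CPM in the high-mt barcodes, against 477, 512, 586 and 629 CPM in the low-mt barcodes, a log2 fold change of 1.70 ± 0.10 (edgeR adjusted p = 1.44e-40). Its kept share was 79.9% ± 14.7 per barcode. The other leading genes were Fam193b, Lars2, Zbtb37, Tmem181a, Dennd1a, Nlrc5, Plcb2, Dnah8 and Prex1, with log2 fold changes between 1.69 and 1.92. Nlrc5, the transactivator of class I MHC genes, stood at 97.8, 108, 110 and 118 CPM in the high-mt barcodes and at 32.2, 42.1, 32.4 and 27.1 CPM in the low-mt barcodes. Dnah8, a dynein heavy chain gene of very many exons, stood at 225, 530, 300 and 376 CPM in the high-mt barcodes and at 72.2, 136, 111 and 109 CPM in the low-mt barcodes. All 12 leading genes were also called higher with all members.

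Short messenger RNAs for small soluble, mitochondrial and membrane proteins led the lower genes. Ndufb6, a subunit of respiratory complex I, fell to 16.7, 12.05, 18.3 and 7.17 CPM in the high-mt barcodes of mutant 1, mutant 2, WT 1 and WT 2, against 111, 80.0, 126 and 112 CPM in the low-mt barcodes. Its log2 fold change was -3.00 ± 0.29 (edgeR adjusted p = 5.27e-19), and 3.18% ± 1.34 of its UMIs per barcode were left. Ndufc1 and Cox5a, of respiratory complexes I and IV, Coa3, an assembly factor of complex IV, and Mrps36 fell by 2.63, 2.55, 2.55 and 2.53 on the log2 scale. Tmem256, Wdr83os, Gstp1, a glutathione transferase, Tmem258 and Bola3 fell by 3.29, 2.78, 2.67, 2.60 and 2.56.

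The other 2 genes among the lower 12 belong to B cells. The limits asked for a T cell gene UMI in the high-mt class only. Of the 3108 low-mt barcodes, epithelial ones included, 72 had none (24 in mutant 1, 10 in mutant 2, 6 in WT 1, 32 in WT 2). Barcodes of other cells without such a UMI could thus enter the low-mt class only. Cd74, the class II MHC invariant chain, had no UMI in the high-mt barcodes of mutant 1 and WT 1, had 36.2 and 35.8 CPM in those of mutant 2 and WT 2, and had 167, 152, 59.8 and 659 CPM in the low-mt barcodes of mutant 1, mutant 2, WT 1 and WT 2. Igkc, the immunoglobulin kappa constant region, had 4.16, 12.05, 6.12 and 32.3 CPM in the high-mt barcodes, against 44.1, 61.0, 231 and 240 CPM in the low-mt barcodes. Over the 14 B cell markers the summed level was 1.41 to 3.20 per 10000 nuclear UMIs in the high-mt barcodes and 4.84 to 17.1 in the low-mt ones, and 7 of the 9 tested fell, with a median log2 of -3.32. The part of other cells in these values was not tested. With all members, 5 of the lower 12 were called, and Cd74, Ndufb6, Gstp1, Ndufc1, Cox5a, Coa3 and Mrps36 were not.

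With all members the lower 12 were Lgals1, Igkc, Srgn, Cd52, Tmsb4x, Fundc2, AW112010, Ifi27l2a, Rps15a, Mif, Sh3bgrl3 and Stmn1, and none of these turned around without the epithelial barcodes. Tmsb4x, the actin-binding thymosin beta 4, is the most abundant of them. It stood at 3027, 2012, 2850 and 2430 CPM in the high-mt barcodes, against 13724, 11201, 13705 and 13352 CPM in the low-mt barcodes, a log2 fold change of -2.34 ± 0.12 (edgeR adjusted p = 1.47e-45) with 4.86% ± 1.07 kept per barcode.

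**Figure D2:**
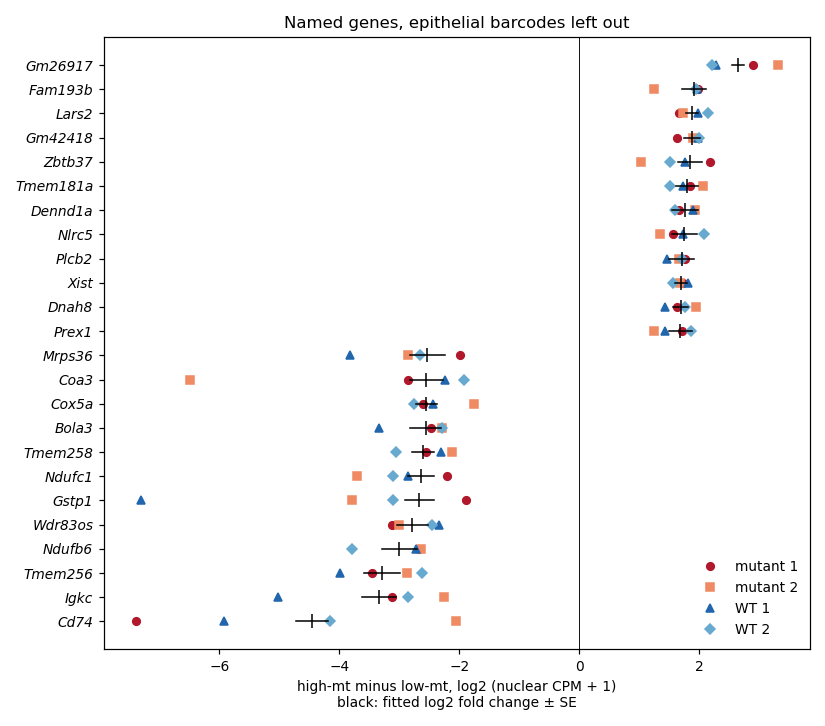
Log2 difference of nuclear CPM + 1, high-mt minus low-mt, for the 12 leading higher and 12 leading lower genes, 1 symbol per library, with the fitted log2 fold change ± SE in black and epithelial barcodes left out. Gm26917 (2.65) is the highest and Cd74 (-4.46) the lowest of the fitted values, and the libraries of each gene lie on 1 side of 0.

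Gene lists by function were read next, each against the 26.7% of all tested genes that rose and the 28.4% that fell. Cytosolic ribosomal protein genes fell in 84 of 84 tested (median log2 of -2.06), and the median gene kept 5.78% of its UMIs per barcode. Rps29 stood at 2265, 1928, 1822 and 2258 CPM in the high-mt barcodes of mutant 1, mutant 2, WT 1 and WT 2, against 8989, 8702, 9986 and 8750 CPM in the low-mt barcodes, with every high-mt value below every low-mt value. Translation factors fell in 18 of 19 (median -1.67), led by Tpt1 (-2.24 ± 0.12), and the exception was Eif4a2, an RNA helicase of translation initiation, at 0.54 ± 0.12. With all members 83 of 84 ribosomal protein genes and 15 of 19 translation factors fell.

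All 23 tested actin cytoskeleton genes fell (median -1.73), among them Actb (-1.85 ± 0.12) and the actin-binding Pfn1 (-1.97 ± 0.12) and Tmsb10 (-1.94 ± 0.12). Glycolysis enzymes fell in 9 of 13 (median -1.55). Gapdh stood at 381, 205, 355 and 326 CPM in the high-mt barcodes and at 2246, 1725, 1745 and 1790 CPM in the low-mt barcodes, with 4.05% kept per barcode, whereas Pfkp had a log2 value of 0.16 ± 0.13, Hk1 of 0.00, Slc2a1 of -0.56 and Slc2a3 of 0.23 and did not pass. With all members 21 of 23 actin genes and 3 of 13 glycolysis genes fell, with medians of -1.53 and -0.71. Proteasome subunits fell in 42 of 46 (median -1.32) and Psme4, a proteasome activator, rose (0.80 ± 0.22), with 29 of 46 lower and 1 higher when all members were kept.

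Nuclear-encoded messenger RNAs for mitochondrial proteins were mostly lower. Respiratory chain subunits encoded in the nucleus fell in 79 of 81 (median -1.93), with 6.39% kept per barcode, and the 2 that did not pass were Ndufs1 (-0.26 ± 0.25) and Uqcc1 (0.13). Mitochondrial ribosomal proteins and tRNA synthetases fell in 62 of 73 (median -1.42, 9.70% kept), for example Mrpl52 (-1.60 ± 0.13) and Mrps21 (-1.66 ± 0.17), while Lars2, of the same function, stood higher as described above. With all members 4 of 81 and 24 of 74 fell, with medians of -0.47 and -0.95.

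Chaperones and translocon subunits of the endoplasmic reticulum fell in 23 of 25 (median -1.15), with a wide range: the small translocon subunits Sec61b and Sec61g fell by 2.33 and 2.29, while the chaperones Hspa5 and Hsp90b1 fell by 0.52 and 0.41. Of 29 surface receptor and class I MHC genes, 17 fell and 4 rose (median -0.58). B2m, the light chain of class I MHC, fell by 1.76, and Ptprc, which encodes CD45, rose by 0.72 ± 0.10 with 5055, 3518, 3461 and 3867 CPM in the high-mt barcodes, against 2752, 2467, 2122 and 2295 CPM in the low-mt barcodes. The other 3 that rose were Itgal (0.46), Cd5 (0.36) and Cd6 (0.52). With all members 10 of 25 and 14 of 29 fell and none rose, with medians of -0.73 and -0.76.

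In the lists of chromatin and giant proteins and of RNA processing, most tested genes rose. Chromatin and giant proteins rose in 23 of 24 (median log2 of 1.01, 50.1% kept per barcode), led by Macf1, a cytoskeletal linker of giant size, at 537, 880, 771 and 595 CPM in the high-mt barcodes, against 210, 283, 218 and 209 CPM in the low-mt barcodes. Atrx (1.13 ± 0.10) and Ankrd11 (0.99 ± 0.10), chromatin regulators, also rose, as did giant proteins that work outside the nucleus, namely the dynein heavy chain Dync1h1 (1.08) and the ubiquitin ligases Birc6 (1.05) and Huwe1 (1.20). Kmt2e (0.23) did not pass. RNA-processing and speckle genes rose in 20 of 24 (median 0.89, 45.0% kept), among them Luc7l2 (1.28 ± 0.10), Rbm25 (1.09 ± 0.10), Son (0.94 ± 0.10) and Srrm2 (0.87 ± 0.10). Ddx5 (0.21), Rbm39 (0.19), Hnrnpu (0.11) and Srrm1 (0.08) did not pass. With all members 15 of 24 rose in each of the 2 lists and none fell.

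The long non-coding RNA list split. Of 13 tested, Malat1 included, 7 rose and 3 fell: Xist, Kcnq1ot1 (1.53 ± 0.10), an imprinted antisense RNA, Tug1 (1.31 ± 0.16) and Neat1 (1.23 ± 0.12), the scaffold of paraspeckles, were higher, whereas the small nucleolar RNA host genes Gas5 (-0.97 ± 0.13), Snhg8 (-0.84 ± 0.18) and Snhg1 (-1.45 ± 0.23) were lower. With all members 6 rose and 3 fell.

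Response genes were called in both directions. Of 28 immediate-early genes 2 rose and 12 fell (median -0.13), with Jund at -1.05 ± 0.11 and Cd69 at 0.03 ± 0.12, and of 15 heat-shock genes 1 rose and 10 fell (median -1.02). Apoptosis and p53 target genes rose in 5 of 17 and fell in 9 (median -0.51): Bax, a promoter of mitochondrial cell death, fell by 1.21, and Bcl2, its antagonist, rose by 0.72. T cell signalling genes outside the 6 rule genes rose in 3 of 15 and fell in 4 (median 0.09), with the kinases Lck (0.19) and Zap70 (0.10) not passing. With all members none of these 4 lists had a gene that rose, and 7 of 28, 10 of 16, 3 of 17 and 4 of 15 fell. The split depended on the scaling: without TMM 12 immediate-early genes were called higher and 4 lower, and 9 T cell signalling genes higher and 1 lower. Their medians were then 0.27 and 0.49, beside the 0.39 of all genes.

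**Figure D3:**
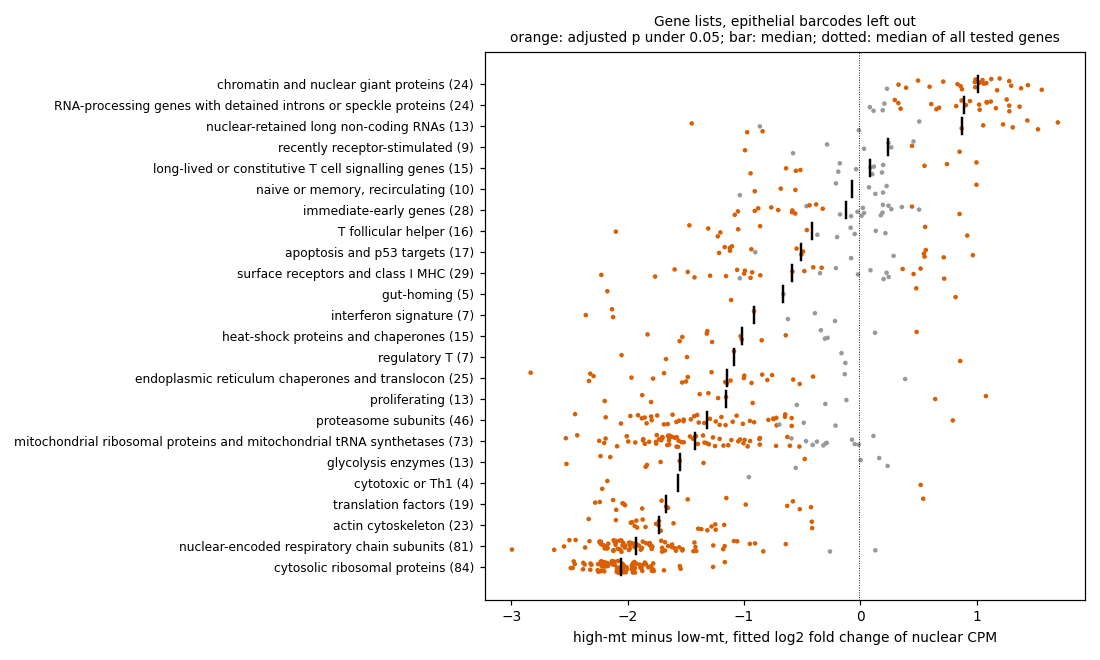
Fitted log2 fold change of nuclear CPM, high-mt minus low-mt, for each tested gene of the process and T cell state lists (number of genes in brackets), epithelial barcodes left out, with the list median as a bar, genes called at an adjusted p under 0.05 in orange and the median of all tested genes dotted. Chromatin (1.01) and RNA-processing (0.89) genes sit at the right, and respiratory chain (-1.93) and ribosomal protein (-2.06) genes at the left.

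Transcript length, which the rule did not use, ordered the kept and lost genes. When the 8188 annotated genes were put in 5 groups of like size by the length of their longest annotated transcript, the median log2 fold change was -1.18, -0.40, 0.06, 0.38 and 0.74 from the shortest to the longest group. In the shortest group (median length 1379 bases) 70.1% of genes fell and 3.602% rose, and in the longest (median 6959 bases) 4.27% fell and 63.9% rose. The median length was 5217 bases for the 2187 annotated genes that were higher and 1974 bases for the 2329 that were lower. Leaving out ribosomal proteins and non-coding genes gave -1.15 and 0.74 at the ends. With all members the 5 medians were -0.88, -0.35, -0.01, 0.27 and 0.58, and without TMM and without the epithelial barcodes they were -0.78, -0.00, 0.45, 0.78 and 1.14, so the order was the same and the zero point moved. Genes of many exons and of long genomic span were likewise higher (medians of 0.72 and 0.63 in the top groups), and these features overlap with length. The level of a gene gave no such order: the medians from the lowest to the highest group of mean CPM were -0.04, 0.10, 0.06, -0.02 and -0.08.

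Some lists lay mostly on 1 side of the median of their length group. The outer groups are wide, 183 to 1956 and 5366 to 123179 bases, so length still varies within them. The median length was 1100 bases for ribosomal protein genes, against 1379 in the shortest group. It was 10547.5 bases for chromatin and giant proteins, against 6959 in the longest group. The part of length within a group was not tested. Set against the median of their own length group, 84 of 84 ribosomal protein genes, 13 of 13 glycolysis genes, 24 of 25 endoplasmic reticulum genes, 22 of 23 actin genes and 76 of 81 respiratory chain genes were below it, and 22 of 24 RNA-processing genes and 11 of 13 long non-coding RNAs were above it. Chromatin and giant proteins, all 24 of which lie in the 2 groups of greatest length, were above it in 18 of 24. Other lists did not stand apart in this way: 14 immediate-early genes were above and 14 below, 8 apoptosis genes above and 9 below, and 6 naive or memory markers above and 4 below. By annotated class, 38 of 79 long intergenic non-coding RNAs rose and 10 fell (median 0.76), 21 of 25 sense-intronic RNAs rose (median 1.38), and 2085 of 7935 protein-coding genes rose while 2291 fell. These counts are a description of the fitted values.

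The shares differed between bins below the 10% limit already and did not move evenly beyond it. In bins of 0 to 5%, 5 to 10%, 10 to 20%, 20 to 40% and over 40% mt- UMIs, ribosomal protein genes took 26.3%, 20.4%, 8.73%, 7.05% and 16.3% of nuclear UMIs in mutant 1, and 29.0%, 25.7%, 11.4%, 4.87% and 3.59% in WT 1. In the same bins they took 25.9%, 18.2%, 7.35%, 1.33% and 1.35% in mutant 2 and 27.3%, 22.3%, 8.97%, 8.93% and 5.15% in WT 2. The rise at the end in mutant 1 goes with a single barcode, which held 37.5% of the nuclear UMIs of that bin. Malat1 took 4.77%, 7.08%, 13.1%, 12.1% and 8.08% in mutant 1 and 3.52%, 4.63%, 9.70%, 10.9% and 10.1% in WT 1, so its share was highest at 10 to 20% in mutant 1 and at 20 to 40% in WT 1 and lower in the last bin of both. It took 4.93%, 7.29%, 14.96%, 12.8% and 14.9% in mutant 2 and 4.15%, 6.12%, 12.6%, 11.8% and 14.8% in WT 2. Malat1, Neat1, Xist and the chromatin list rose at every step in 0 of 4 libraries, and ribosomal protein genes fell at every step in 2 of 4. RNA-processing genes rose at every step in 3 of 4 libraries, and actin and endoplasmic reticulum genes fell at every step in 3 of 4. Mutant 2 had only 22, 10 and 4 barcodes in the upper 3 bins.

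**Figure D4:**
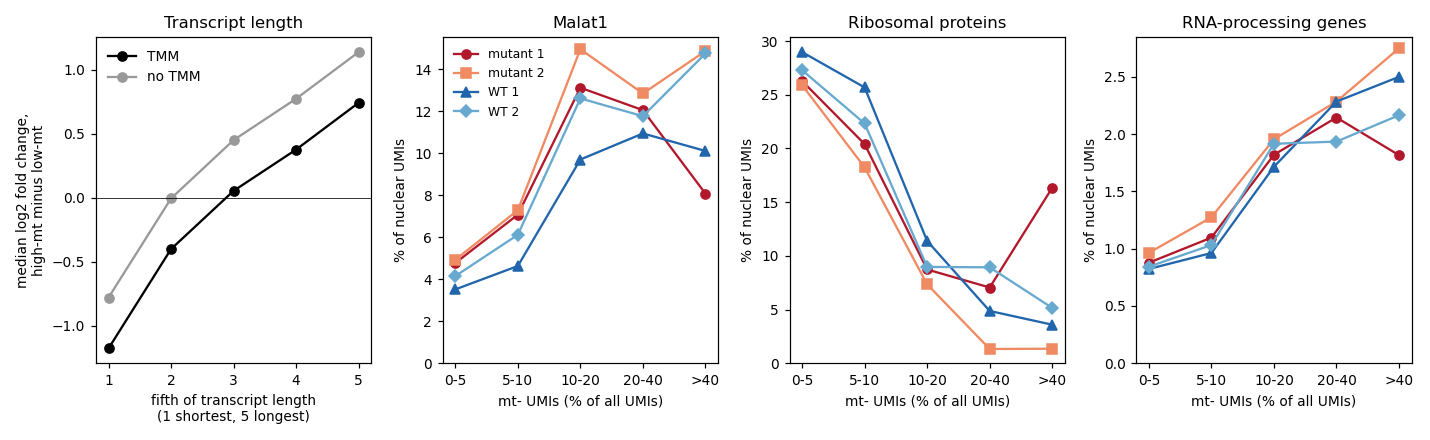
Left, median log2 fold change (high-mt minus low-mt) by group of transcript length, with and without TMM scaling. Right, the percent of nuclear UMIs given to Malat1, to ribosomal protein genes and to RNA-processing genes in 5 bins of mt- share, 1 line per library, epithelial barcodes left out: ribosomal protein genes start at 25.9 to 29.0% and RNA-processing genes at 0.823 to 0.964%, and both move between the first and second bins already.

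Within the mitochondrial transcripts the changes were small. mt-Co1, a subunit of respiratory complex IV, made up 16.9% ± 0.54 of mt- UMIs in the high-mt barcodes and 19.0% ± 0.60 in the low-mt barcodes (SD, n = 4 libraries), lower in 4 of 4. mt-Atp6, a subunit of the ATP synthase, made up 19.2% ± 1.19 in the high-mt barcodes and 17.7% ± 0.88 in the low-mt barcodes, higher in 4 of 4. mt-Co2 and mt-Co3 were also higher in 4 of 4, mt-Nd3, like mt-Atp8, was lower in 4 of 4, and the other 7 genes went in both directions among the libraries. Per barcode, each of the 13 mt- messenger RNAs had on average between 114% (mt-Atp8) and 147% (mt-Atp6) of its low-mt number of UMIs.

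Whether T cell states differ in loss was asked in 2 ways, by the share of barcodes with a UMI of a state's marker genes and by the fitted levels of the markers. For the shares, each barcode was thinned to 500 nuclear UMIs, which left out 26, 2, 34 and 25 shallower high-mt barcodes in mutant 1, mutant 2, WT 1 and WT 2 and no low-mt barcode. All 554 members entered before this thinning. Without the epithelial barcodes, the mean differences (high-mt minus low-mt) were 13.8 points for the regulatory T gate and -6.56 points for the interferon gate. With 4 pairs an exact test cannot reach 0.05, so shares are given without a call. A lower share can come from fewer cells of a state or from the loss of its marker transcripts, and these cannot be told apart.

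The regulatory T gate (Foxp3, Gpr83, Lrrc32, Ikzf2) was higher in the high-mt barcodes of all 4 libraries: 29.7%, 22.9%, 30.5% and 37.6% in the high-mt barcodes of mutant 1, mutant 2, WT 1 and WT 2, against 16.5%, 11.96%, 18.3% and 21.0% in the low-mt barcodes. The mean difference was 13.2 ± 2.44 points (SD, n = 4). Without thinning the order was the other way, with 49.4%, 45.9%, 43.1% and 53.6% in the high-mt barcodes and 67.4%, 61.2%, 74.4% and 73.5% in the deeper low-mt barcodes. The gate rested on Ikzf2, a zinc finger factor of the Ikaros family, which alone gave 29.2%, 22.9%, 25.6% and 37.6% in the high-mt barcodes, against 16.2%, 11.96%, 16.3% and 18.0% in the low-mt barcodes. Foxp3, the defining factor of regulatory T cells, was found in at most 3.66% of high-mt and 1.15% of low-mt barcodes of any library. The longest annotated transcript of Ikzf2 has 9278 bases, and its log2 fold change of 0.86 lay 0.12 above the median of its length group. Of the other regulatory T markers tested, Izumo1r, Tnfrsf18, Tnfrsf4 and Capg fell by 1.09, 1.49, 1.67 and 2.05, and Ctla4 (-0.13) and Gpr83 (-0.16) did not pass.

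The interferon gate (Ifit1, Ifit3, Isg15, Irf7, Usp18) was lower in all 4 libraries, at 2.39%, 0 of 35 barcodes (which allows up to 8.57%), 8.54% and 2.84% in the high-mt barcodes of mutant 1, mutant 2, WT 1 and WT 2, against 9.63%, 6.22%, 13.4% and 9.62% in the low-mt barcodes, a mean difference of -6.27 ± 1.03 points (SD, n = 4). Isg15, a short ubiquitin-like gene, carried it, with 54.1, 48.2, 79.5 and 28.7 CPM in the high-mt barcodes and 222, 158, 312 and 185 CPM in the low-mt barcodes. Among barcodes rich in epithelial transcripts without any T cell UMI, 4 of 56 (7.14%) were positive for this gate. Their median was 1044.5 nuclear UMIs. The same 56 gave 4 positives for the proliferating gate. They gave 0 for the other 6 gates, which allows a share of up to 6.38% by the exact binomial interval. Interferon and proliferation genes are not confined to T cells, so these positives set no background level for the 2 gates. How much of the small high-mt shares came from the cells themselves was not tested.

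At this thinning none of the other 6 gates had 1 direction in all 4 libraries. The T follicular helper gate stood at 16.7%, 31.4%, 12.2% and 22.0% in the high-mt barcodes, against 26.7%, 20.1%, 13.9% and 19.5% in the low-mt barcodes, lower in mutant 1 and WT 1 and higher in mutant 2 and WT 2. Naive or memory (2.19 ± 2.28 points), cytotoxic or Th1 (-0.92 ± 1.70), gut-homing (-1.04 ± 1.52), recently stimulated (1.51 ± 2.86) and proliferating gates were each higher in some libraries and lower in others. Other settings gave 1 direction in 4 of 4 libraries: the naive or memory gate was higher after thinning to 300 and to 1000 UMIs, the proliferating gate was higher at 1000 UMIs and with the high-mt limit above 20%, the cytotoxic gate was lower at 300 UMIs and above 20%, and the gut-homing and stimulated gates were lower above 20%. The intervals of the shares, which cover counting error only, are wide in mutant 2, where 35 high-mt barcodes were deep enough.

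**Figure D5:**
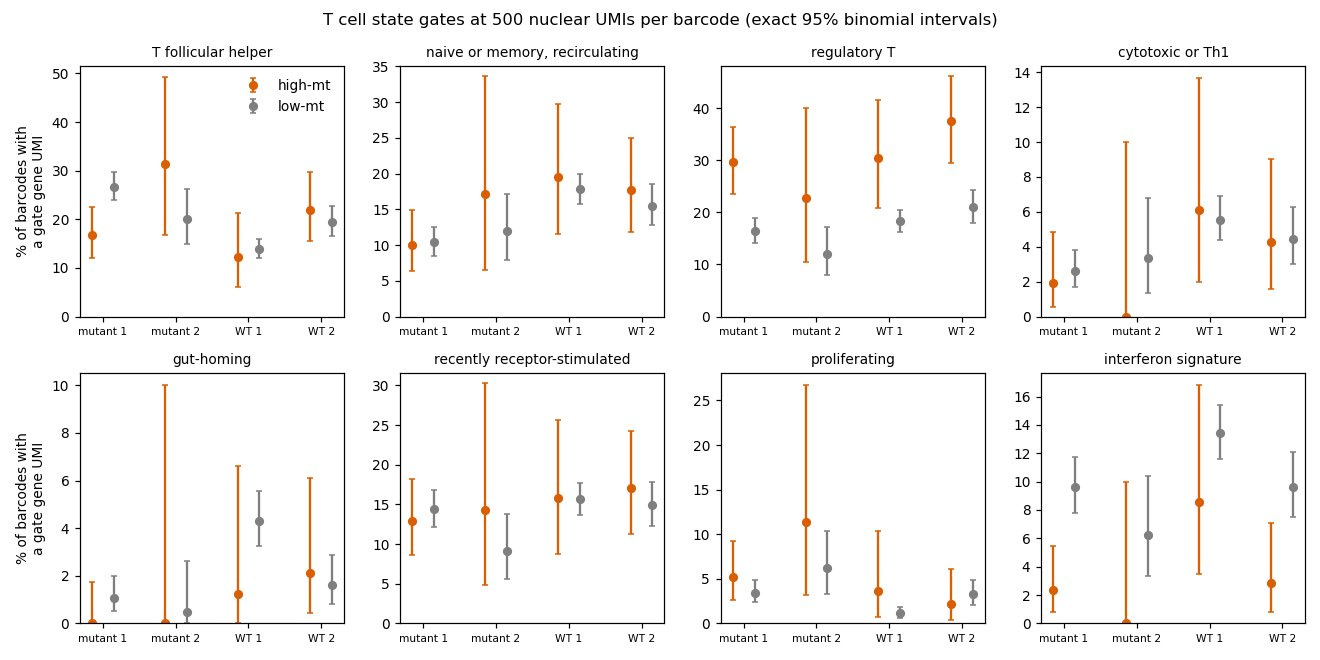
Share of barcodes, in percent, with at least 1 UMI of a state's gate genes after thinning to 500 nuclear UMIs, by library, high-mt (orange) left of low-mt (grey), with exact 95% binomial intervals. The regulatory T gate is higher in the high-mt barcodes of all 4 libraries (22.9 to 37.6%) and the interferon gate lower, while the other 6 gates vary in direction among the libraries at this thinning.

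Markers of 1 state moved in both directions. Of 16 T follicular helper markers 2 rose and 8 fell (median -0.41): Slamf6, a co-receptor of the SLAM family, rose with 1114, 783, 1088 and 1326 CPM in the high-mt barcodes, against 560, 581, 596 and 596 CPM in the low-mt barcodes, and Bcl6, the defining factor of these cells, rose by 0.56 ± 0.15, whereas Ascl2, Sh2d1a, Sostdc1 and Pdcd1 fell by 2.10, 1.47, 1.31 and 1.23. Bcl6 was higher in 3 of 4 libraries, but not in WT 2, with 115 CPM in the high-mt and 119 CPM in the low-mt barcodes. Sostdc1 was lower in 3 of 4, but not in WT 1, with 110 CPM in the high-mt and 75.6 CPM in the low-mt barcodes. The proliferating list fell in 8 of 13 and was called higher in 2, Top2a (1.08 ± 0.20) and Mki67 (0.64 ± 0.24). Both lie in the 2 groups of greatest length. Mki67 was higher in mutant 1 only, at 156 CPM in the high-mt against 62.7 CPM in the low-mt barcodes. In mutant 2, WT 1 and WT 2 it was lower, at 12.05, 0 and 25.1 CPM against 37.3, 11.5 and 41.9 CPM. The interferon list fell in 4 of 7 and rose in none (median -0.91), the regulatory T list fell in 4 of 7 and rose in 1, the naive or memory list fell in 3 of 10 and rose in 1, the receptor-stimulated list fell in 1 of 9 and rose in 2, the gut-homing list fell in 2 of 5 and rose in 2, and the cytotoxic list fell in 2 of 4 and rose in 1. Of all tested genes 26.7% rose and 28.4% fell. With all members no state marker rose. Set against their own length group, the medians of the lists were -0.19 for T follicular helper, 0.05 for naive or memory, -0.31 for regulatory T, 0.11 for stimulated, -0.62 for proliferating, -0.68 for interferon, -0.71 for gut-homing and -0.39 for cytotoxic markers. Without TMM the medians of the naive or memory (0.33) and T follicular helper lists (-0.02) lay below the 0.39 of all genes, and the naive or memory list then had 4 markers higher and 0 lower, the stimulated list 6 and 1, the T follicular helper list 6 and 7, and the gut-homing list 2 and 1.

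Mutant and WT high-mt barcodes were compared next. With all members no gene of 4898 tested (0%) passed edgeR's adjusted threshold, with 53 at an unadjusted p under 0.05 and no call by DESeq2 (28 at an unadjusted p under 0.05). Leaving out mutant 1 gave 405 calls and leaving out mutant 2 gave 97, and leaving out WT 1 or WT 2 gave 0. The 5 genes with the smallest p were Tmem176b, Zg16, S100a1, Aldh2 and Reg1, and Zg16 and Reg1 are known from gut epithelium. Without the epithelial barcodes 10 of 3946 genes (0.253%) were called, 5 higher (0.127%) and 5 lower in the mutant: BC018473, Hist1h2ap, Arap2, Top2a and Pim1 were higher, and Hspa1a, Hspa1b, Igflr1, Smad7 and Pmepa1 were lower. Smad7, an inhibitor in the TGF-beta pathway that the pathway itself induces, had 16 and 2 UMIs in the high-mt barcodes of mutant 1 and mutant 2, against 19 and 32 UMIs in those of WT 1 and WT 2, which is 37.2 and 27.3 CPM against 141 and 130 CPM at plain library size (log2 of -1.85 ± 0.41, edgeR adjusted p = 0.00926). Pmepa1, another TGF-beta target, had 27.9 CPM in mutant 1 and no UMI in mutant 2, against 133 and 89.3 CPM in WT 1 and WT 2 (log2 of -2.12 ± 0.53, edgeR adjusted p = 0.0369).

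The low-mt barcodes of the same libraries gave the same order for both genes. Smad7 had 20.3 and 29.0 plain CPM in mutant 1 and mutant 2, against 72.2 and 49.2 in WT 1 and WT 2, and Pmepa1 had 41.5 and 37.7, against 101 and 82.6. Hspa1a and Hspa1b are near-identical heat-shock genes whose UMIs may be divided uncertainly, and Hist1h2ap belongs to a histone family with the same limit. Smad7 and Pmepa1 passed edgeR's threshold without mutant 2 (adjusted p = 0.00613 and 0.0427) and did not pass without mutant 1, WT 1 or WT 2 (0.371 to 0.955 and 0.132 to 0.998), and with all members the adjusted p was 0.999 for both. With 1 library left out, 1 genotype is a single library that is assumed to vary like the other genotype, so these edgeR p-values rest on the spread of the remaining pair. Of the 10 genes none passed without mutant 1 or without WT 1, and the counts of calls were 1 without mutant 1, 16 without mutant 2, 0 without WT 1 and 5 without WT 2. In the test of whether the high-mt to low-mt change differs by genotype, no gene passed with all members (0%, 93 of 8396 at an unadjusted p under 0.05 by edgeR, 2 calls by DESeq2) or without the epithelial barcodes (0%, 304 of 8192 at an unadjusted p under 0.05). The 5 genes with the smallest p with all members were Reg3g, Reg1, Spink1, Aldh2 and 2200002D01Rik, and Reg3g, an antimicrobial lectin of gut epithelium, had 29 and 142 UMIs in the high-mt barcodes of mutant 1 and mutant 2, against 25 and 182 UMIs in those of WT 1 and WT 2, and 139 and 1972 UMIs in the low-mt barcodes of mutant 1 and mutant 2, against 3 and 19 UMIs in those of WT 1 and WT 2.

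High-mt barcodes made up 20.5% (exact 95% binomial interval 18.24 to 23.001) and 14.5% (10.4 to 19.4) of the barcodes with T cell transcripts and at least 200 genes in mutant 1 and mutant 2, and 8.21% (6.83 to 9.76) and 20.2% (17.5 to 23.2) in WT 1 and WT 2. The libraries of a genotype differed from each other by more than the 3.30 points between the genotype means (exact two-sided permutation p = 0.667, where 2 libraries against 2 cannot go below 0.333). Above a limit of 20% mt- UMIs the difference was -0.729 points, and without WT 1 it was -2.72 points.

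The antibody counts of the WT matrices gave another readout of the same barcodes. Each of the 3 tags is an oligo on an antibody, read by its sequence, and what each tag stands for is not stated. Their sequences as deposited, 5′ to 3′ and with all bases in capitals, are shown because they identify the tags:
tag 301: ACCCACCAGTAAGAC
tag 302: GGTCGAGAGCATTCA
tag 303: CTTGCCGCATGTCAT
The high-mt barcodes had a median of 12 tag UMIs in WT 1 and 11 in WT 2, against 16 and 15 in the low-mt barcodes. Their tag UMIs were thus nearer the low-mt level than their nuclear UMIs were. Barcodes under 200 detected genes had medians of 8 and 2, and 92.9% and 72.1% of them carried a tag. Without epithelial barcodes these medians were 9 and 7. Whether the tag UMIs were bound to cells was not tested. In barcodes with at least 10 tag UMIs, 1 tag held over 80% of them in 65 of 70 (92.9%) and 88 of 98 (89.8%) high-mt barcodes of WT 1 and WT 2, against 914 of 961 (95.1%) and 439 of 474 (92.6%) low-mt barcodes. The share of the tag UMIs from tag 303 was 24.0% and 40.5% in the high-mt barcodes of WT 1 and WT 2, against 34.1% and 56.5% in the low-mt barcodes, and that from tag 301 was 42.3% and 36.1%, against 36.9% and 25.2%. By share of tag UMIs, tag 303 was thus lower and tag 301 higher in the high-mt class of both WT libraries. Counted by barcodes with at least 10 tag UMIs, the classes of WT 1 were close. There tag 303 led in 19 of 70 high-mt and 278 of 961 low-mt barcodes, and tag 301 in 28 and 365. In WT 2 tag 303 led in 43 of 98 high-mt and 288 of 474 low-mt barcodes, and tag 301 in 30 and 117.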

How the data were processed

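Single-cell RNA was captured with a Chromium 3′ kit, per the labels' protocols. The authors deposited counts: whole UMI counts per gene and barcode, made with Cell Ranger 6.0.0 on mm10 and with Seurat 4, per the submitters' processing notes and the file headers; other steps are not given in the sources used here. Another pair of WT samples, labelled as hashtag libraries, was not used by itself here.

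High-mt T cell barcodes and low-mt barcodes were found from the counts by the limits given in the text. Nuclear-encoded UMIs were summed per library and class (8 sums, between 73392 and 11859967 UMIs without epithelial barcodes, so mutant 2 limits the precision). Low genes were dropped by filterByExpr and TMM factors were computed. Tests were the quasi-likelihood fits of edgeR (version 4.0.16) with Benjamini-Hochberg adjustment at 0.05, for high-mt minus low-mt with the library as a block, mutant minus WT within the high-mt sums, and their interaction. SEs are the fold change divided by the root of F. The mt- genes and the 6 T cell genes chose the barcodes and were not tested. Malat1 and Lars2 entered the fit and the counts like other genes, but as given marks of these barcodes they get no p-value here and support nothing. Named genes are the 12 largest changes in each direction with an adjusted p under 0.05, 1 direction in all 4 libraries and a mean CPM of at least 50, plus up to 4 abundant members of each list and the 5 smallest p of both genotype tests; members named beyond these, the gate genes and the 10 genotype calls were chosen after their values were seen. Members and lists were chosen with earlier results of these data known. An epithelial barcode has at least 1% of nuclear UMIs from 18 epithelial genes, a setting added after the data were seen.

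Scrublet in scanpy 1.11.5 called 31 doublets (0.645% of barcodes), none among members, and none was removed. Coordinates, transcript lengths and classes are from GENCODE on GRCm38/mm10. On simulated counts for the high-mt against low-mt test (8386 genes, epithelial barcodes left out, 200 changed), edgeR recovered 61.6% of 2-fold and 86.7% of 4-fold changes with 5 false calls. With all members (8927 genes) it recovered 19.2% and 85.7%. For mutant against WT it recovered 37.3% and 92.0% without the epithelial barcodes (3755 genes), with 6 false calls. With all members (4663 genes) it recovered 0% of either size. For the interaction it recovered 14.4% and 59.6% without the epithelial barcodes (8383 genes), with 2 false calls. With all members (8903 genes) it recovered 0% and 6.0%. Each simulation changed 200 genes and gave all genes the same dispersion. Alternatives were other scaling, DESeq2 1.42.0, no filter, other limits, thinning, leaving out doublets, other lineages or 1 library, and other blocks. The scripts ran in R 4.3.3 with limma 3.58.1 and in Python 3.11.15 with pandas 2.3.3, matplotlib 3.10.9, scipy 1.17.1 and numpy 2.4.6.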

Additional observations from a re-analysis of the deposited data

Results flagged for a closer look

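Antibody tags, which no comparison of gene expression used, gave a signal in the high-mt barcodes of both WT libraries: the median was 12 tag UMIs per barcode in WT 1 and 11 in WT 2. The mutant matrices hold no tags and so give no control level. Within WT 1 and WT 2, barcodes under 200 detected genes had medians of 8 and 2 tag UMIs.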

How the results depend on the processing

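The number of genes called between high-mt and low-mt barcodes was 2208 with all members. It was 1089 with the high-mt limit above 20%, 1432 after thinning to 500 nuclear UMIs, where fewer genes (2010) were tested, 4518 without epithelial barcodes, 4718 without these and without TMM, and 1428 without these and thinned; leaving out 1 library gave 235 (without WT 2) to 3357 (without mutant 2) with all members and 3413 (without mutant 1), 3652 (without WT 2), 4177 (without WT 1) and 4552 (without mutant 2) without the epithelial barcodes. For mutant against WT it was 0, against 52 with no filter on low counts, 10 without epithelial barcodes, 0 to 405 without 1 library and 0 to 16 without 1 library and the epithelial barcodes (5 without WT 2). For the interaction it was 0, against 2 without TMM, 2 with DESeq2, 37 with no filter, 54 and 38 with the limit above 15% and 20%, 0 to 37 without 1 library and 0 to 1 without 1 library and the epithelial barcodes. The cause of these moves was not tested beyond the smaller numbers of genes named. The genotype difference in the high-mt share (3.30 points) was -0.729 above 20% mt- UMIs and ranged from -2.72 to 9.32 without 1 library. Gates moved for naive or memory (6.45 points at 1000 UMIs), cytotoxic (2.44 at 1000), stimulated (-5.01 above 20%) and interferon (-3.89 at 300 and -9.98 at 1000); T follicular helper (0.52) was 2.61 at 1000, -2.52 above 20% and -3.09 to 4.02 without 1 library, and proliferating (2.10) was 0.72 at 300, 3.43 at 1000 and 3.87 above 20%. With all members Gstp1 turned to 0.61 with no replicate block, Ndufc1 to 0.31, and Cox5a to 0.42; Ndufc1 had 0.19 without mutant 1 and 0.13 without WT 1, and Cox5a 0.14 and 0.16, against -1.01 and -1.12 without mutant 2. Without the library as a replicate block 3031 genes were called between the classes. Mutant and WT libraries share only a number: with that number as a replicate block, 0 genes were called for mutant against WT, and the deviations of same-numbered libraries correlated at 0.615 with all members and at -0.02 without the epithelial barcodes. Depth limits mutant 2 most, with 37 members.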
